A study of Arabidopsis thaliana with 4 samples.

Results

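Membrane trafficking genes were followed in inflorescence tips of Arabidopsis thaliana, in the mutant tmm-1 and in the control line Col-3 gl1. They were taken as all genes with a probe set of their own on the Affymetrix ATH1 array whose annotation symbol begins with VPS, SYP, VAMP, VTI, SNX, EXO70, SEC or RAB. This gave 22 genes of 13356 with their own probe set, namely 10 with VPS symbols, 11 with SEC symbols and 1 with a RAB symbol. RefSeq lists 158 symbols with these prefixes, among them 29 VPS, 17 SEC and 50 RAB symbols, so the members are only a part of each family. The other 5 prefixes matched no probe set with 1 symbol in the annotation used here, and probe sets with several symbols were not searched. The VAMP, VTI, sorting nexin and EXO70 families are therefore not analysed here. Of the syntaxins only a gene listed under another symbol is given, with the closing observations. Each member had 1 probe set, and all 22 matched a RefSeq locus. Symbols do not define function, and 3 of the 22 (SEC, SECA2 and SECE1) do not act in vesicle traffic. They are described separately.

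TMM is a receptor-like protein with leucine-rich repeats that sets the spacing of stomata, and gl1 removes most leaf hairs. Each line was measured on 2 arrays, and each array held 1 pool of tips from plants at growth stage 6.10, grown at 22 °C, 70% humidity with 16 h of light a day (125 µmol m-2 s-1). All sample titles say replicate 1, and pool numbers were therefore used to tell replicates apart. The titles write the control as Col1g11 and the source name as Col-3 gl1, and the latter is used here. The labels do not say whether pools came from separate plants or whether the mutant line also carries gl1, so the p-values measure only a spread between pools that may be technical. An inflorescence tip mixes meristem, stem and flower buds, and in such bulk tissue fewer cells of a type and less RNA per cell cannot be told apart.

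Membrane trafficking moves proteins between compartments in vesicles. At the late endosome, ESCRT complexes (endosomal sorting complexes required for transport) bend the membrane inwards and so send ubiquitin-tagged membrane proteins, receptors and auxin carriers among them, to the vacuole for breakdown. At the cell surface, the exocyst, a tether of several subunits, holds secretory vesicles against the plasma membrane before SNARE proteins fuse the membranes. Rab GTPases mark the compartments, and exchange factors switch them on. In growing shoot tips these routes deliver wall material and recycle auxin carriers and receptors.

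The values are MAS5 signals on a linear scale, in array units. As a yardstick for background, 27 probe sets for Bacillus transcripts reached at most 21.2 on any array. Median signals of the 4 arrays were 40.7 to 45.4, and the 10th percentile was 3.07 on tmm-1 replicate 2 against 1.54 to 1.61 on the others, so the dim end of that array lay higher. The ratio of 3' to 5' signal of actin, a sign of RNA quality, was 2.29 and 2.47 in the tmm-1 pools and 2.25 and 2.39 in the control pools. Of 18 listed inflorescence and floral meristem markers, 2 had a probe set of their own, CLV3 and UFO, and their signals of 0.868 to 4.35 were under the yardstick on every array, so the tissue label could not be checked against such markers. The levels of TMM and GL1 are not analysed here.

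No trafficking gene passed the test for a difference between the lines. Differences were tested with limma on log2(signal + 10), for probe sets with a mean signal of at least 10, and called at a Benjamini-Hochberg adjusted p below 0.05 over all 16960 probe sets tested. Of the 22 members 21 were tested, 0 were called higher and 0 lower. Of all tested probe sets 0.613% were called, 0.242% higher and 0.371% lower. An adjusted p below 0.1 gave 0 members and 0.955% of all tested probe sets. At an unadjusted p below 0.05 limma had 1 of the 21, the exocyst gene SEC5B, against 8.81% of all tested probe sets. The smallest adjusted p among members was 0.478. The 95% intervals of the log2 change lay within 2-fold either way for 20 of the 21, with SEC5B as the exception, and within 1.5-fold for 13. All fold changes and intervals are on the scale of signal + 10, which understates the change of dim genes.

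**Figure D1:**
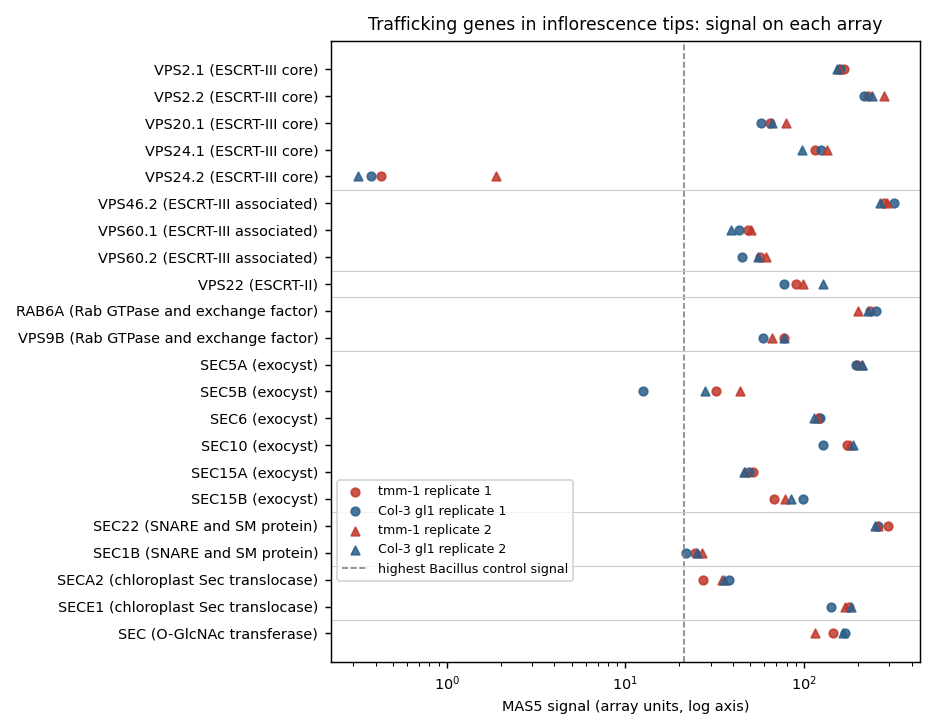
MAS5 signal (array units, log axis) of the 22 genes, in order of role, on each of the 4 arrays, with tmm-1 in red and Col-3 gl1 in blue, circles for replicate 1 and triangles for replicate 2. The dashed line is the highest Bacillus control signal, 21.2. VPS24.2 lies under it on all 4 arrays and SEC5B on 1 control array, and for most genes the red and blue points interleave.

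Signals were above the yardstick on all 4 arrays for 20 of the 22, against 52.1% of all genes with their own probe set. The exceptions were VPS24.2, under it on every array, and SEC5B, under it on 1 control array. The other signals ran from 21.8 for SEC1B to 317 for VPS46.2. A probe set's signal depends on its probes as well as on the transcript, so these signals do not rank the genes by abundance.

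Among the members, the ESCRT machinery was represented by 9 genes with VPS symbols, of which 8 were tested and 0 called. Their log2 changes ran from -0.08 to 0.23 with a median of 0.14, or 0.15 without the dim VPS24.2. All genes with their own probe set had a median of 0.05, and the tested ones among them 0.03. Tested genes for ESCRT and its partners under other symbols are not in the ESCRT median. Of these SNF7.1 was at -0.34, ELC at -0.21, VPS36 and ALIX at -0.01, SNF7.2 at 0.12 and VPS37-2 (AT2G36680) at 0.14.

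Among genes for the core of ESCRT-III, the filament that pinches off vesicles into the endosome, VPS2.1 (AT2G06530) had signals of 168 and 158 in the tmm-1 pools and 158 and 153 in the control pools. Its log2 change was 0.06 ± 0.16 (SE), and the lines overlapped. VPS2.2 (AT5G44560), a further form of the same subunit, had 228 and 279 in the tmm-1 pools and 216 and 241 in the control pools. The 2 tmm-1 pools of VPS2.2 lay farther apart than the means of the lines, and its log2 change of 0.14 ± 0.16 had a 95% interval of -0.19 to 0.47.

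VPS20.1 (AT5G63880), which in yeast starts the ESCRT-III filament, had 64.5 and 79.7 in the tmm-1 pools and 57.4 and 66.0 in the control pools, with a log2 change of 0.19 ± 0.20. VPS24.1 (AT5G22950), of the core subunit that joins VPS2 in the filament, had 114 and 134 in the tmm-1 pools and 124 and 97.4 in the control pools, with a log2 change of 0.15 ± 0.18. In both genes the lines overlapped. VPS24.2 (AT3G45000), a second gene for that subunit, was at 0.428 and 1.88 in the tmm-1 pools and 0.376 and 0.317 in the control pools. All 4 values were far under the yardstick, so VPS24.2 was not tested and its log2 value, 0.11 with a pseudocount of 10 and 0.59 with 1, has no meaning as a change.

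The ESCRT-III-associated genes included the only tested VPS genes whose lines did not overlap. VPS60.1 (AT3G10640) had 48.7 and 50.7 in the tmm-1 pools against 43.3 and 38.8 in the control pools, a log2 change of 0.23 ± 0.22 (limma, adjusted p = 0.839). Both mutant pools were above both control pools, as for 21.5% of all tested probe sets. VPS60.2 (AT5G04850) had 56.9 and 61.5 in the tmm-1 pools against 44.6 and 55.3 in the control pools, a log2 change of 0.21 ± 0.21 (limma, adjusted p = 0.843). Here too the mutant pools were the higher ones, with a gap between tmm-1 replicate 1 and control replicate 2 that was smaller than the gap between the control pools. VPS46.2 (AT1G73030), also known as CHMP1A and needed, together with CHMP1B, for sorting auxin carriers to the vacuole, had 279 and 291 in the tmm-1 pools and 317 and 266 in the control pools. Its tmm-1 signals lay between those of the control, and its log2 change was -0.03 with a 95% interval of -0.34 to 0.29.

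VPS22 (AT4G27040), a subunit of ESCRT-II, which recruits ESCRT-III, had 89.8 and 98.1 in the tmm-1 pools and 76.7 and 128 in the control pools. The control pools differed by 0.67 on the log2 scale and enclosed both mutant pools. The log2 change of -0.08 ± 0.20 was 0.26 without control replicate 2 and -0.41 without control replicate 1.

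The exocyst was represented by 6 genes, all tested and 0 called. Their median log2 change was 0.02. Without SEC5B the other 5 ran from -0.30 to 0.18.

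SEC5B (AT1G21170), a gene for the SEC5 subunit, had the largest log2 change of the 22 genes. Its signals were 32.0 and 43.8 in the tmm-1 pools and 12.5 and 27.9 in the control pools, or 37.9 ± 8.36 against 20.2 ± 10.9 (SD, n = 2), a log2 change of 0.70 ± 0.30 (limma, unadjusted p = 0.0276, adjusted p = 0.478). The mutant pools were both higher, but the control pools differed by 0.75 on the log2 scale, more than the lines did, and control replicate 1 was under the yardstick. The log2 change was 0.33 without control replicate 1 and 1.08 without the other control pool. It was 0.88 without tmm-1 replicate 1 (limma, adjusted p = 0.0856) and 0.52 without tmm-1 replicate 2.

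SEC5A (AT1G76850), the partner gene for that subunit, had 198 and 209.6 in the tmm-1 pools and 196 and 210.1 in the control pools. The pools of each line spanned almost the same range, and the log2 change was 0.01 with a 95% interval of -0.32 to 0.33. The difference between SEC5A and SEC5B in log2 change was not tested.

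SEC6 (AT1G71820), a core subunit of the exocyst, had 122 and 118 in the tmm-1 pools and 123 and 113 in the control pools, with a log2 change of 0.02 ± 0.17. The control signals enclosed those of the mutant. SEC10 (AT5G12370), another subunit, had 174 and 181 in the tmm-1 pools and 128 and 189 in the control pools. Only control replicate 1 stood apart, and the log2 change of 0.18 ± 0.18 was -0.09 without it. A tandem copy of SEC10 is known in this genome, and its transcripts may not be told apart from SEC10 on this array.

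SEC15 is the subunit that in yeast binds the Rab on the vesicle. SEC15A (AT3G56640) had 52.0 and 46.5 in the tmm-1 pools and 49.4 and 46.3 in the control pools, and its lines overlapped with a log2 change of 0.03 ± 0.21. SEC15B (AT4G02350) had 67.6 and 78.0 in the tmm-1 pools and 99.0 and 84.9 in the control pools, or 72.8 ± 7.38 against 91.9 ± 9.92 (SD, n = 2). Both mutant pools of SEC15B were below both control pools, as for 16.8% of all tested probe sets, and the difference of -0.30 ± 0.19 exceeded the gap between pools in each line (limma, adjusted p = 0.691). It was -0.40 without control replicate 2 and -0.20 without control replicate 1.

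Of the Rab and fusion genes, 4 were measured and tested and 0 called. RAB6A (AT2G44610), also known as RABH1B, a Golgi Rab GTPase, had 233 and 201 in the tmm-1 pools and 252 and 228 in the control pools. The higher mutant pool exceeded the lower control pool, and the log2 change was -0.14 with a 95% interval of -0.47 to 0.18. VPS9B (AT5G09320), a relative of the exchange factor VPS9A that switches on Rab5 GTPases, had 76.9 and 66.1 in the tmm-1 pools and 58.6 and 77.2 in the control pools. Both mutant pools lay inside the control range, and the log2 change was 0.07 ± 0.20.

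SEC22 (AT1G11890), a SNARE of transport between the endoplasmic reticulum and the Golgi, had 293 and 258 in the tmm-1 pools and 259 and 249 in the control pools, a log2 change of 0.11 ± 0.15. The lines overlapped at tmm-1 replicate 2. SEC1B (AT4G12120), of the Sec1/Munc18 family that assists SNAREs, had 24.4 and 26.7 in the tmm-1 pools and 21.8 and 25.2 in the control pools. All 4 signals were just above the yardstick, and the 95% interval of its log2 change, -0.52 to 0.69, was wide.

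**Figure D2:**
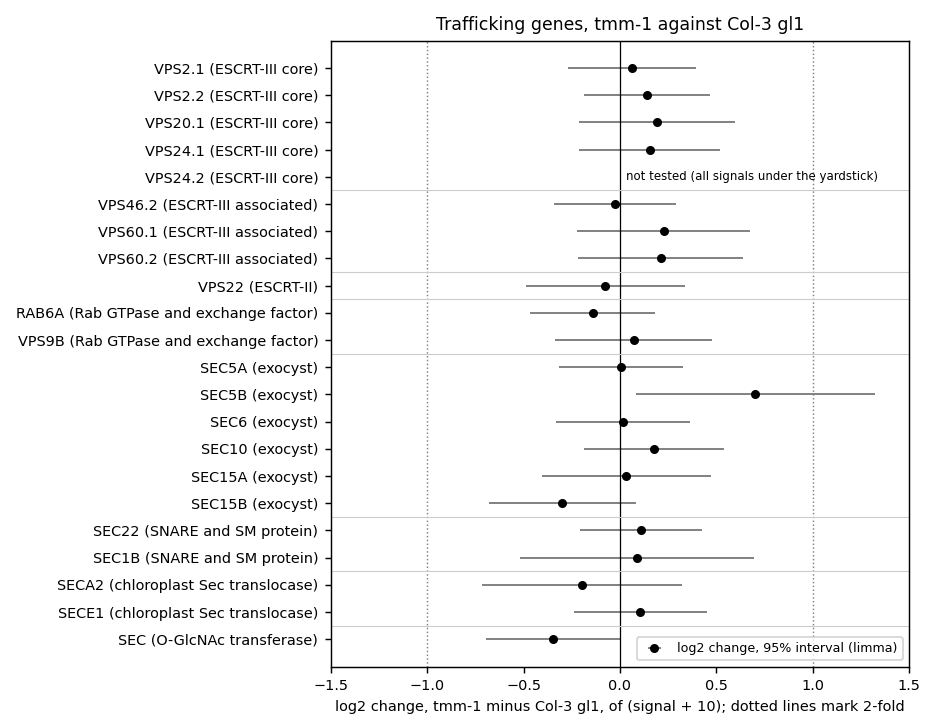
Log2 change of (signal + 10), tmm-1 minus Col-3 gl1, of the 22 genes in order of role, with bars for limma's 95% intervals and dotted lines at 2-fold. The intervals of 20 of the 21 tested genes lie within the dotted lines, that of SEC5B reaches 1.32, and VPS24.2 was not tested and has no point.

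The 3 members outside vesicle traffic were not called either. SEC (AT3G04240) stands for SECRET AGENT, an enzyme that attaches O-linked N-acetylglucosamine to proteins. Its signals were 146 and 115 in the tmm-1 pools and 169 and 166 in the control pools, or 130.4 ± 22.0 against 167 ± 1.74 (SD, n = 2). Both mutant pools were below both control pools, and the log2 change of -0.35 ± 0.17 exceeded the gap between the mutant pools of 0.32 (limma, unadjusted p = 0.0514, adjusted p = 0.571). It was -0.51 without tmm-1 replicate 1 and -0.19 without replicate 2 of that line.

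SECA2 (AT1G21650) and SECE1 (AT4G14870) encode parts of the Sec machinery that carries proteins across chloroplast membranes. SECA2 had 27.1 and 34.7 in the tmm-1 pools and 37.9 and 35.6 in the control pools. Its mutant pools were both lower, by a log2 change of -0.20 ± 0.25, which was less than the gap of 0.27 between them. It was -0.06 without tmm-1 replicate 1 and -0.33 without replicate 2 of that line. SECE1 had 179 and 169 in the tmm-1 pools and 141 and 184 in the control pools, and its lines overlapped with a log2 change of 0.11 ± 0.17.

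Several subunits are encoded by 2 of the genes, which allowed the lines to be compared side by side within a subunit. In the VPS2 pair the log2 changes were 0.06 and 0.14, in the VPS60 pair 0.23 and 0.21, in the SEC15 pair 0.03 and -0.30, and in the SEC5 pair 0.01 and 0.70. In the VPS24 pair only VPS24.1 had a measured level. None of these differences within pairs was tested.

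As a list, the 22 genes had a median log2 change of 0.08, against 0.05 over all 13356 genes. The 21 tested members, without VPS24.2, had 0.07, against 0.03 over all 9454 tested genes with their own probe set. The order of the medians of the 22 and of all 13356 genes turned without tmm-1 replicate 1, where they were 0.03 and 0.09. Log2 changes were above 0 for 16 of the 22, VPS24.2 with its signals under the yardstick among them, and below 0 for 6, while 59.0% of all genes were above 0. Among tested genes it was 15 of the 21 members, against 55.5% of all. The median for VPS genes was 0.12, or 0.14 without VPS24.2, and it was 0.22 and 0.05 when replicates 1 and 2 of tmm-1 were left out in turn, 0.19 without control replicate 2 and 0.06 with arrays scaled to a common median. That for SEC genes was 0.03, turning to -0.04 with that scaling and also without control replicate 1. The lines did not overlap for 6 of the 21 tested genes, 3 higher in tmm-1 (SEC5B, VPS60.1 and VPS60.2) and 3 lower (SEC, SEC15B and SECA2), against 38.3% of all tested probe sets in either direction. The log2 change exceeded the gap between pools in both lines for 3 of the 22, SEC, SEC15B and VPS60.1, against 22.9% of all genes. Shares this near the background are not read as a result about the members. Without SEC, SECA2 and SECE1 the median was 0.09.

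**Figure D3:**
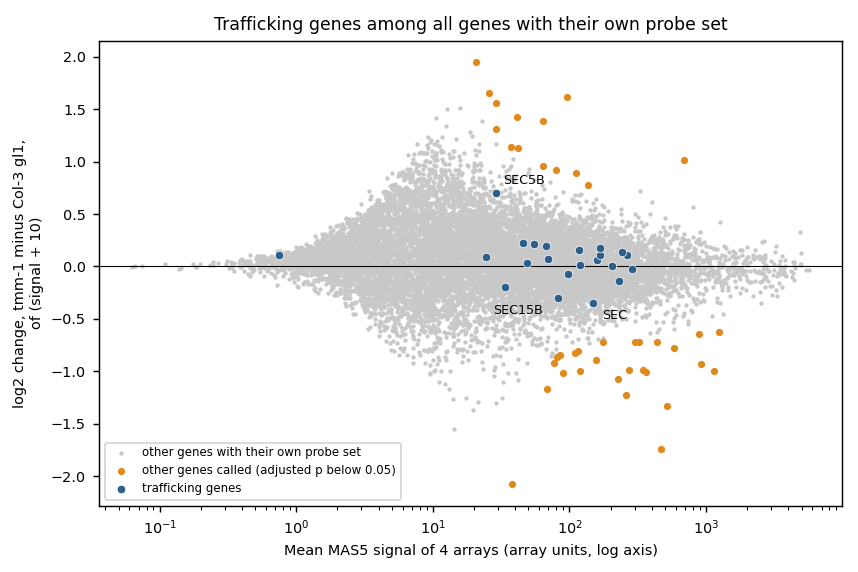
Log2 change of (signal + 10), tmm-1 minus Col-3 gl1, against the mean MAS5 signal of 4 arrays (log axis) for all genes with their own probe set in grey, other genes called at an adjusted p below 0.05 in orange and the 22 trafficking genes in blue. SEC5B, SEC and SEC15B are named, and the blue points lie within the grey cloud.

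Other genes of the same pathway were taken from 5 lists of coat, SNARE, tether, endosomal sorting and Rab regulator genes, with 52 entries in all. Of these 12 had a probe set of their own and were not already among the 22, and 1 further entry, CHMP1A, is VPS46.2. All 12 were tested, 0 were called higher and 0 lower, and 0 had an unadjusted p below 0.05 in limma. Their log2 changes ran from -0.21 to 0.14 with a median of -0.01.

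Of these 12, the 4 with the smallest p were ELC, MON1, ECH and KEU. ELC (AT3G12400), the ESCRT-I subunit that binds ubiquitin, had 92.8 and 88.7 in the tmm-1 pools and 107 and 106 in the control pools. Its log2 change was -0.21 ± 0.18 (limma, adjusted p = 0.794). Both mutant pools were lower, as for 16.8% of all tested probe sets. MON1 (AT2G28390), part of the exchange factor for Rab7 GTPases, had 105 and 109.7 in the tmm-1 pools and 125 and 119 in the control pools, a log2 change of -0.17. ECH (AT1G09330), a protein of the trans-Golgi network needed for cell elongation, was at 0.14 ± 0.15, and KEU (AT1G12360), the Sec1 protein of cytokinesis, at -0.14 ± 0.16. Besides ELC, the lines did not overlap for MON1, KEU and YKT61, lower in tmm-1, and for ECH, higher. Over all tested probe sets the share in either direction was 38.3%, and these companion genes are not read as a result.

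Leaving out an array in turn left 0 members called in each case. Log2 changes kept their sign over the 4 fits for 12 of the 22 genes, the dim VPS24.2 included, and turned for 10. The ranges were widest for SEC5B, 0.33 to 1.08, and VPS22, -0.41 to 0.26. The dim end of tmm-1 replicate 2 was raised, and without that array the median of the 22 was 0.05 and that of all genes 0.00228. Markers of pollen and tapetum that had their own probe set lay under the yardstick on all 4 arrays for 4 of 5 genes. The exception, the tubulin gene TUA1, had 81.9 and 84.5 in the tmm-1 pools and 102 and 101 in the control pools. AUR1, the 1 marker of dividing cells with a probe set, had 258 and 263 in the tmm-1 pools and 201 and 201 in the control pools (log2 change 0.36 ± 0.15, limma, adjusted p = 0.478), and its part in the values of the trafficking genes was not tested.

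**Figure D4:**
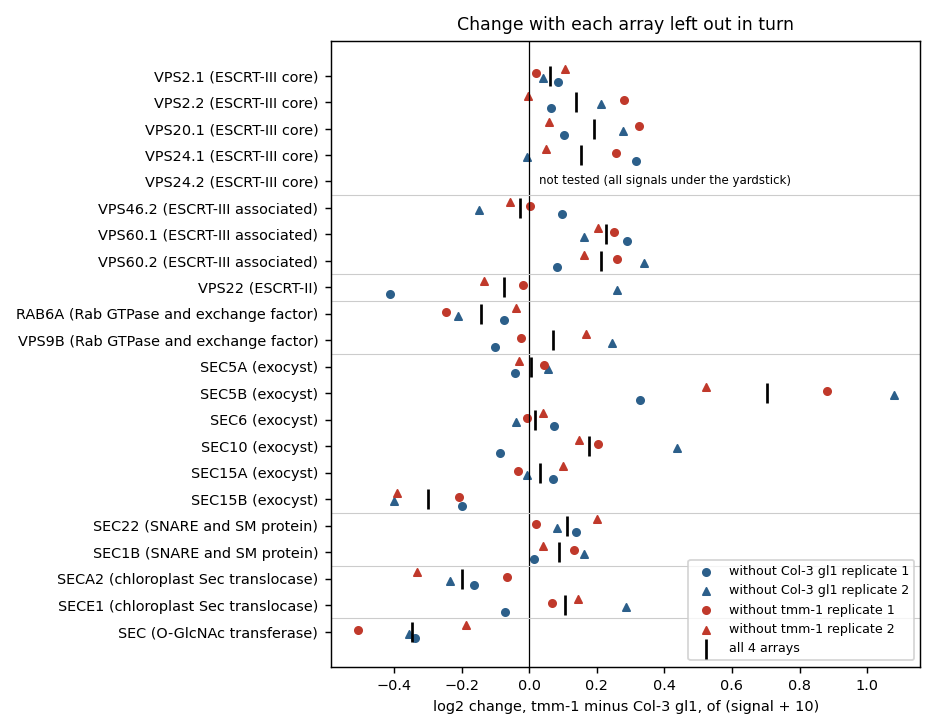
Log2 change of (signal + 10), tmm-1 minus Col-3 gl1, of the 21 tested genes with all 4 arrays (black bars) and with each array left out (red for tmm-1 and blue for control arrays, circles for replicate 1 and triangles for replicate 2). SEC5B ranges from 0.33 to 1.08 and VPS22 from -0.41 to 0.26, on both sides of 0.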

How the data were processed

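The authors deposited linear intensity values, MAS5 signals per the submitters' processing notes, which name MAS5 and GCOS. MAS5 gives each probe set 1 background-corrected signal from its probe pairs. The 2% trimmed mean was 100.01 on each array, so no further scaling was done. Such scaling removes any overall difference in RNA content. The 64 array controls were left out of the tests. Detection calls were not used.

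Genes were named from a platform annotation joined by Entrez ID to RefSeq (TAIR10.1). It gave 13513 probe sets with 1 symbol and 503 with several, and 8794 were unnamed. SEC3A and SEC3B share a probe set, so neither is a member. A pseudocount of 10 was added before log2. The test was limma 3.58.1 in R 4.3.3 (lmFit, eBayes with an intensity trend, two-sided). Errors rest mostly on the variance trend, with 23.6 prior degrees of freedom. An exact permutation test of 2 against 2 arrays cannot go below p = 0.33 and was not used. With 4 arrays, precision is limited by their number. The limma script was also run on simulated arrays with 200 probe sets changed. These took the fitted means, variances drawn at random around limma's variance trend, and independent normal errors without array effects. It called 55% of the simulated log2 changes of 1 and 87% of those of 2, so many 2-fold changes would be missed among all tested probe sets. The changes were placed at random, dim probe sets included. Standard errors reached 0.58 among all tested genes with their own probe set, against 0.15 to 0.30 among the tested members. The 2 rates therefore do not describe the members.

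The members and lists were chosen with earlier results of these data known. All 22 members are given. A rule took the 4 companion genes with the smallest p. TUA1 and AUR1 were named after their values were seen.

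Alternatives were another pseudocount, normalization, signal filter, variance model or threshold, a block for the pool number, and leaving out each array. The pool number was not a block in the reported model, since the labels tie it to no day or batch and arrays with the same number deviated together only weakly (r = 0.032 over the tested probe sets). Sequences were not used here.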

Additional observations from a re-analysis of the deposited data

How the results depend on the processing

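Limma called 0 of the members in every alternative run, among them either other pseudocount, both other normalizations, no filter, a mean signal of at least 30, either other variance model, an adjusted p below 0.1 (162 probe sets of all) and, added after the data were seen, 10 genes with a matching alias. Over all probe sets the calls were 104, with 69 after quantile normalization, 17 with no filter and 0 with no intensity trend. In limma with pools as a replicate block there were 0 members and 191 probe sets called, and the members' median stayed at 0.08. With an array left out it called 77 to 662 probe sets, the lone sample being assumed to vary like the other line. Without tmm-1 replicate 1 there were 662 and without tmm-1 replicate 2 there were 167.

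The members' median log2 change of 0.08 was 0.044 after quantile normalization and 0.0086 after scaling to a common median, where the median of all genes was 0.0051 and -0.0054. It was 0.033 to 0.092 with an array left out. Signs turned for 12 of the 22 genes in at least 1 setting, none of them called. After quantile normalization SEC15A was at -0.037, SEC1B at -0.038 and VPS46.2 at 0.016. After scaling to a common median VPS9B was at -0.0053, SEC15A at -0.040, SEC5A at -0.078, SEC6 at -0.066 and VPS2.1 at -0.021. With an array left out SEC5A ran from -0.041 to 0.054, SEC6 from -0.040 to 0.072, SEC10 from -0.086 to 0.44, SEC15A from -0.034 to 0.10, SECE1 from -0.073 to 0.29, VPS2.2 from -0.0026 to 0.28, VPS9B from -0.10 to 0.25, VPS22 from -0.41 to 0.26, VPS24.1 from -0.0062 to 0.32 and VPS46.2 from -0.15 to 0.096. The cause of these turns was not tested. Signals near the yardstick, as for SEC5B and SEC1B, limit what can be read from those genes.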

Other observations

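The annotation lists 10 genes outside the members whose aliases carry a searched prefix, among them KEU (alias SEC11), already given as a companion gene. They were looked up after the data were seen, and limma called 0 of the 9 tested. The log2 changes of these 9 ran from -0.34 to 0.14 with a median of -0.05. Both genes for the ESCRT-III subunit SNF7, in yeast the main component of the filament, were among them. SNF7.1 (AT4G29160) had 91.3 and 73.5 in the tmm-1 pools and 125 and 90.4 in the control pools, a log2 change of -0.34 ± 0.19 (limma, adjusted p = 0.647), and the lines overlapped. SNF7.2 (AT2G19830) had 71.4 and 72.8 in the tmm-1 pools and 88.5 and 48.3 in the control pools. The control pools enclosed both mutant pools, and the log2 change of SNF7.2 was 0.12 ± 0.22. VPS36 (AT5G04920), an ESCRT-II subunit beside VPS22, was at -0.01 with a 95% interval of -0.40 to 0.37. The gene with the alias VPS37-2 (AT2G36680) was at 0.14 ± 0.20, and AtSec20 (AT3G24315) at 0.05 ± 0.16.

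ARA6 (AT3G54840), a plant-type Rab5 GTPase of the endosome, had 299.8 and 300.2 in the tmm-1 pools and 324 and 303 in the control pools, a log2 change of -0.06 ± 0.15. SEC31B (AT3G63460), of the outer COPII coat that forms vesicles at the endoplasmic reticulum, had 66.0 and 76.8 in the tmm-1 pools and 117 and 58.7 in the control pools. Its control pools lay on either side of both mutant pools, 0.89 apart on the log2 scale, and its log2 change was -0.20 ± 0.22. The other SEC31 gene, SEC31A (AT1G18830), had signals of 2.30 to 11.3, under the yardstick, and was not tested. The syntaxin gene ATSYP24 (AT1G32270) had 15.2 and 18.5 in the tmm-1 pools and 25.3 and 11.9 in the control pools, above the yardstick on 1 array, with a log2 change of -0.05 ± 0.37.

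The probe set shared by SEC3A and SEC3B, which encode an exocyst subunit that in yeast marks sites of secretion, had 151 and 156 in the tmm-1 pools and 129.7 and 117 in the control pools. Both mutant pools were higher, and the log2 change was 0.30 ± 0.17 (limma, adjusted p = 0.647). Which of the genes it reports cannot be told apart.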
